A study of Homo sapiens with 12 samples.

Results

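Epithelial cells are held together by tight junctions, adherens junctions and desmosomes, and are braced from within by keratin filaments. The 43 genes described here encode these structures and their regulators, and were chosen by their symbols, as rows of 3 tables that compare 1 compound each with a solvent control. The choice was made with earlier results of these data known. Of the 43 genes, 42 had a row in any table: 38 of 18534 genes with SAHA, 42 of 27126 with compound 1 and 35 of 15255 with a6, and 35 had a row in all 3. GRHL2 was not analysed here.

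The cells were of MDA-MB-231, a human triple-negative breast cancer cell line of mesenchymal appearance, grown as bulk cultures and sequenced as total RNA. The 12 libraries fell into 4 groups of 3: cells given SAHA, compound 1 or a6, each at 2.5 µM for 48 h, and cells given DMSO for the same time (Ctrl). SAHA (vorinostat) inhibits histone deacetylases (HDACs), enzymes that remove acetyl groups from histones. The labels call SAHA and compound 1 single-target compounds and a6 a compound that acts on both HDACs and G-quadruplexes, structures in which strands of guanine-rich DNA or RNA stack. The sources used here give no structure for compound 1 or a6. The labels number the libraries of a group as biological replicates and do not tie them to separate cultures, so p-values measure the spread between these libraries, which may be technical.

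In a tight junction, claudins and occludin seal the gap between neighbouring cells and scaffold proteins such as ZO-1 (TJP1), ZO-3 (TJP3) and cingulin (CGN) tie them to actin. In an adherens junction, cadherins bind each other across the gap, while desmosomes link desmosomal cadherins (DSG2, DSC2) through plakoglobin (JUP), plakophilins (PKP2, PKP3) and desmoplakin (DSP) to keratins. Carcinoma cells that undergo an epithelial to mesenchymal transition lose E-cadherin (CDH1) and other junction proteins, through repressors such as SNAI1, ZEB1 and ZEB2 that bind E-box sequences in promoters, and MDA-MB-231 is a widely used example of a line in that state. The regulators ESRP1, ESRP2, OVOL1, OVOL2, GRHL1 and ELF3 act in the other direction, towards the epithelial state.

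Levels are mean normalized read counts of a group, worked out per gene from the overall mean and the ratio to Ctrl in the authors' deposited table. No table gives values per library, so the spread between libraries is known only through the standard error (SE) of each log2 fold change, and no library's depth is known here. A gene is called changed where the authors' DESeq2 test gave an adjusted p under 0.05, with the adjustment over all genes of its table. The Ctrl levels computed from the 3 tables were nearly the same, for example 81.8, 81.6 and 80.1 for CGN, since the comparisons share the Ctrl libraries. Of the markers looked for as present in the line, VIM stood at 21149, CD44 at 8262 and EGFR at 2616 in Ctrl by the authors' deposited table for SAHA. The hormone receptor genes ESR1 and PGR stood at 0.660 and 0.337 in Ctrl by the authors' deposited table for compound 1. ERBB2 transcript, looked for as low in this triple-negative line, was at 2103 in Ctrl and so was not low beside EGFR.

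With SAHA, 10 of the 38 measured genes rose and 1 fell in the authors' deposited table. Of all 18534 genes tested with SAHA, 4.53% rose and 3.02% fell. Because the set was chosen with earlier results of these data known, its counts and medians beside all genes are a description only. The authors' own SAHA lists name 11 of the set among 1327 raised genes and 2 among 609 lowered genes, with CDH3 and CLDN3 added to those called here. The median log2 fold change of the 38 was 0.62, with 29 above 0, beside a median of -0.01 over all genes. No gene of the SAHA table had a mean normalized count under 2.44, so a gene near 0 in Ctrl could enter it only if it was higher with SAHA. With compound 1, 0 of the 42 measured genes passed in the authors' DESeq2 test, as did 0% of all genes in either direction. At an unadjusted p under 0.05 there was 1 of the 42 genes (CDS1) and 54 of all 27126 genes, and 0 of the 42 were in the authors' own lists of changed genes for compound 1. The median of the 42 was 0.04, with 23 above 0. With a6, 1 of the 35 measured genes rose (CGN) and 0 fell in the authors' DESeq2 test, where 0.243% of all genes rose and 0.341% fell. At an unadjusted p under 0.05, 3 of the 35 were higher and 3 lower with a6, beside 1131 of all 15255 genes in either direction. The authors' own a6 lists name 2 of the set among 150 raised genes and 1 among 248 lowered genes. The median of the 35 with a6 was -0.14, with 11 above 0, beside -0.03 over all genes. Because the libraries are bulk cultures, more cells with a transcript and more transcript per cell cannot be told apart.

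**Figure D1:**
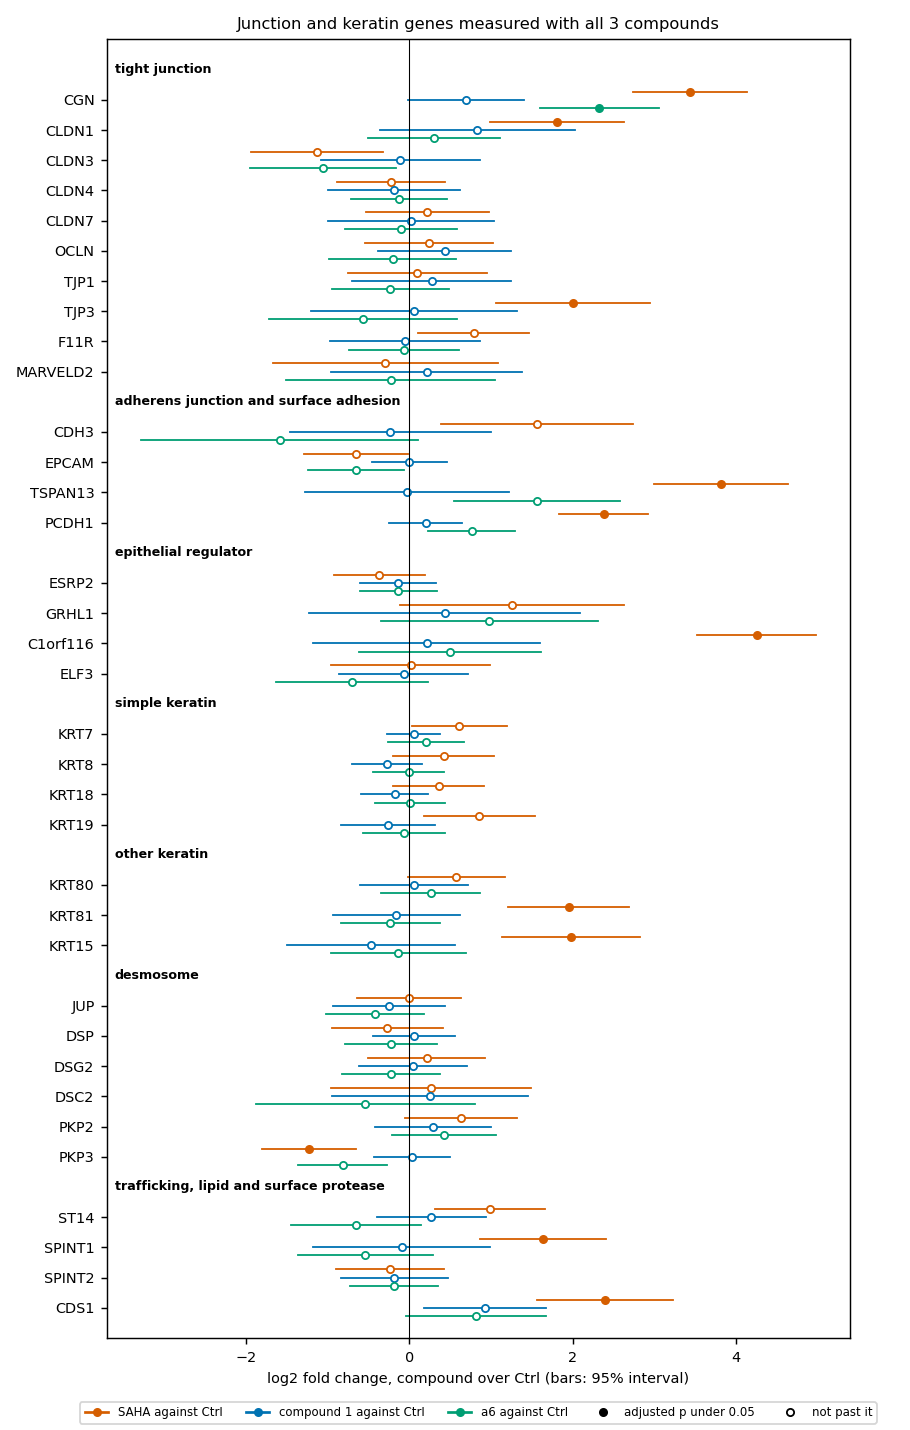
Log2 fold change over Ctrl (x axis) of the 35 genes measured with all 3 compounds, by role, with 95% intervals from the authors' standard errors. Filled points passed an adjusted p of 0.05: 10 higher and 1 lower with SAHA, CGN alone with a6, and 0 with compound 1.

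CGN encodes cingulin, a scaffold on the inner face of tight junctions, and was the gene of the set that passed with more than 1 compound. It lies on GRCh38 at chromosome 1, from 151510510 to 151538692, on the plus strand. CGN averaged 889.6 normalized counts with SAHA and 81.8 in Ctrl, a log2 fold change of 3.44 (SE 0.36, adjusted p = 1.19e-18) in the authors' deposited table. With a6 it averaged 401.6, against 80.1 in Ctrl, a log2 fold change of 2.33 (SE 0.37, adjusted p = 1.88e-06) in the authors' deposited table. With compound 1 it averaged 131.9, against 81.6 in Ctrl, a log2 fold change of 0.69 (95% interval -0.01 to 1.40; unadjusted p = 0.0540, adjusted p = 1.00) in the authors' deposited table. The level of CGN thus lay above Ctrl with each compound, and passed the test with SAHA and with a6.

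C1orf116, TSPAN13 and PCDH1 were, with CGN, the 4 genes of the set with the smallest adjusted p-values with SAHA, and all rose. C1orf116, a gene of little known function whose transcript marks epithelial cells, averaged 374 with SAHA and 19.6 in Ctrl, a log2 fold change of 4.25 (SE 0.37, adjusted p = 1.57e-26) in the authors' deposited table. This was the highest log2 fold change among the 38 genes measured with SAHA. TSPAN13, a tetraspanin membrane protein, averaged 270.1 with SAHA and 19.2 in Ctrl, a log2 fold change of 3.82 (SE 0.42, adjusted p = 1.49e-16) in the authors' deposited table. PCDH1, a protocadherin of airway and other epithelia, averaged 1215 with SAHA and 234 in Ctrl, a log2 fold change of 2.38 (SE 0.28, adjusted p = 1.54e-14) in the authors' deposited table. On GRCh38 these genes lie at chromosome 1, 207018521 to 207032756 (C1orf116), chromosome 7, 16753535 to 16784536 (TSPAN13), and chromosome 5, 141853111 to 141879246 (PCDH1).

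The promoters of these 4 genes are shown because CGN alone also passed with a6, and because the compounds of the study are aimed at chromatin and at G-quadruplexes. Each is the RefSeq sequence (GRCh38.p14) from 250 bases before to 50 after the start of transcription, 5′ to 3′ on the strand of the gene: chr1:151511137-151511436 (+) for CGN, chr1:207032707-207033006 (-) for C1orf116, chr7:16753505-16753804 (+) for TSPAN13 and chr5:141869578-141869877 (-) for PCDH1. Capitals mark a G-quadruplex pattern, 4 runs of GGG with 1 to 7 bases between runs, on either strand.
CGN: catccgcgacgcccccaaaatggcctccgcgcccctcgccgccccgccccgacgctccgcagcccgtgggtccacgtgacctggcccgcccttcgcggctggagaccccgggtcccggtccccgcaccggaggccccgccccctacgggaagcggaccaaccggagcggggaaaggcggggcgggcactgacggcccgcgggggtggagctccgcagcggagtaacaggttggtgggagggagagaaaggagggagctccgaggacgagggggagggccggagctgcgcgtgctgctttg
C1orf116: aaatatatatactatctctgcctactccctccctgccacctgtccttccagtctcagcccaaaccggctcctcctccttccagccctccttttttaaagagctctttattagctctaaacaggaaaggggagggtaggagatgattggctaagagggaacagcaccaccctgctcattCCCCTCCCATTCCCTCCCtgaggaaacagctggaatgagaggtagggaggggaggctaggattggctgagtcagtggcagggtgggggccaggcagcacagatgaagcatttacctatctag
TSPAN13: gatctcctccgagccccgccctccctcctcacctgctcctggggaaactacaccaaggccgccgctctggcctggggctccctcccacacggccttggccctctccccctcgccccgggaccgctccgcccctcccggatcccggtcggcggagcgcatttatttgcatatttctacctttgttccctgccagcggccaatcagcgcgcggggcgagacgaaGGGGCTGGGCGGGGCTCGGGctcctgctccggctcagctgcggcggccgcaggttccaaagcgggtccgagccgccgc
PCDH1: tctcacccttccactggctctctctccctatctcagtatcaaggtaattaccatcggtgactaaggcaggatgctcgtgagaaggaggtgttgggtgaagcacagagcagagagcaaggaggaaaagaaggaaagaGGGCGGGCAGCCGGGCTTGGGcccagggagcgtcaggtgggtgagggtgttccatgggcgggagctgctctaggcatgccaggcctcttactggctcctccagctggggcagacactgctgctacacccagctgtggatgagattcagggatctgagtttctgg
The CGN window holds neither the pattern nor an E-box (CACCTG, searched on both strands), at a GC content of 75.3%. Counted from the RefSeq start of transcription, the pattern begins at -72 in C1orf116, -28 in TSPAN13 and -114 in PCDH1. An E-box begins at -214, -221 and -81 in the same windows of C1orf116, TSPAN13 and PCDH1. The CGN and PCDH1 windows lie wholly inside the gene positions given above, which begin upstream of them. Which start these cells used is not known here. RefSeq promoters were found for 22 of the 43 genes, 31 in all, and 18 of these (58.1%) hold the pattern and 17 (54.8%) an E-box. Among all 35116 promoters of that table, 24.9% hold the pattern and 20.6% an E-box. The median GC content was 67.0% in the 31 and 58.7% in all. The promoters of genes that rose with SAHA, 10 of 8 genes, hold the pattern in 7 cases and an E-box in 6, beside 11 and 11 of the other 21. A match of letters is a description of the window and does not show a folded quadruplex or a bound factor.

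Other tight junction genes divided into 2 that rose with SAHA and 7 that did not pass. CLDN1, a sealing claudin at chromosome 3, 190305701 to 190322475, averaged 298 with SAHA and 85.1 in Ctrl, a log2 fold change of 1.81 (SE 0.42, adjusted p = 0.000757) in the authors' deposited table. TJP3, which encodes the scaffold ZO-3 at chromosome 19, 3708109 to 3750813, averaged 166 with SAHA and 41.4 in Ctrl, a log2 fold change of 2.00 (SE 0.48, adjusted p = 0.00122) in the authors' deposited table. CLDN4, the highest of them per kilobase of transcript in Ctrl, averaged 4143 with SAHA, 4238 with compound 1 and 4332 with a6, and 4846 in Ctrl of the SAHA table; its log2 fold changes of -0.23, -0.19 and -0.13 did not pass in the authors' deposited tables. CLDN3 was at -1.13 with SAHA (SE 0.41, adjusted p = 0.0716) and at -1.05 with a6 (SE 0.46, adjusted p = 0.506) in the authors' deposited tables, so neither passed. The authors' own lists do name CLDN3 as lowered by SAHA and by a6. CLDN7, OCLN, TJP1, F11R (the adhesion molecule JAM-A) and MARVELD2 (tricellulin) lay between -0.30 and 0.79 with SAHA in the authors' deposited table. CLDN7 shares exon bases with ELP5 on the opposite strand, which averaged 939 with SAHA and 1036 in Ctrl. The sources used here do not give the strand setting, so reads of CLDN7 and ELP5 may be mixed. MARVELD3 had a mean normalized count of 1.32 in the compound 1 table and was not analysed here with SAHA or a6. The summed level of the 10 measured tight junction genes was 7515 with SAHA and 6752 in Ctrl.

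**Figure D2:**
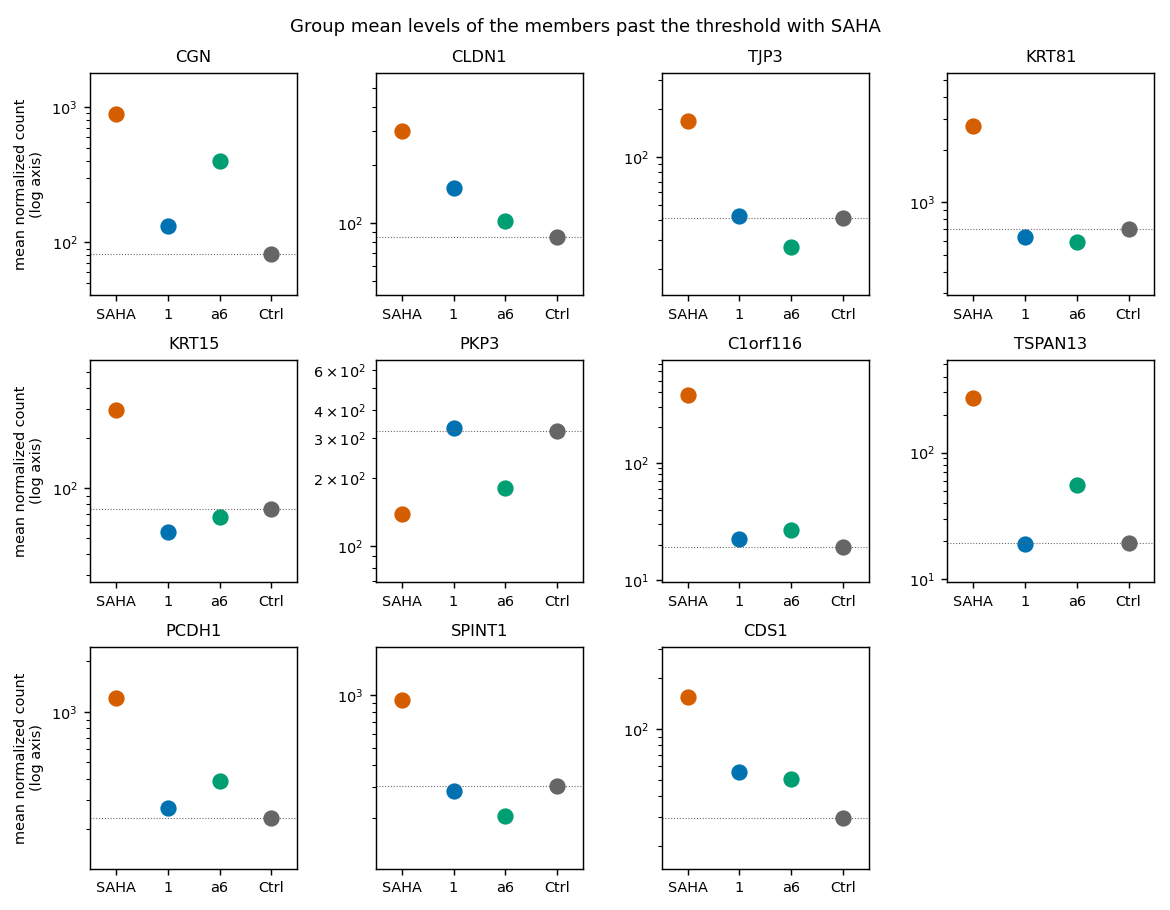
Group mean normalized counts (y axes, log scale) with SAHA, compound 1 (labelled 1), a6 and in Ctrl, for the 11 genes that passed with SAHA; dotted lines mark Ctrl, and no spread between libraries is shown because the tables hold none. CGN stood at 889.6, 131.9 and 401.6 with SAHA, compound 1 and a6, above 81.6 in Ctrl of the compound 1 comparison. PKP3 is the gene below Ctrl with SAHA.

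Among cadherins and surface adhesion genes TSPAN13 and PCDH1 rose with SAHA and the other 3 did not pass. CDH1, which encodes E-cadherin, was at a low level: it averaged 13.5 with SAHA and 5.04 in Ctrl, a log2 fold change of 1.43 (95% interval -0.28 to 3.13, adjusted p = 0.407) in the authors' deposited table. It averaged 5.71 with compound 1 and 5.06 in Ctrl and was not analysed here with a6. CDH3, which encodes P-cadherin, averaged 42.6 with SAHA and 14.4 in Ctrl (log2 fold change 1.57, adjusted p = 0.0929), and 4.69 with a6 and 14.1 in Ctrl (log2 fold change -1.59, adjusted p = 0.736), in the authors' deposited tables. The authors' own list of genes raised by SAHA does name CDH3. EPCAM, an adhesion molecule of most carcinomas, was at -0.65 with SAHA (adjusted p = 0.249) and at -0.65 with a6 (adjusted p = 0.555) in the authors' deposited tables. With SAHA the cells therefore had more PCDH1 and TSPAN13 transcript, and no call could be made for E-cadherin at its low level.

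Of the regulators, C1orf116 alone passed with SAHA, and the DESeq2 test of the authors called 0 with compound 1 or a6, with 0 at an unadjusted p under 0.05 there. ESRP2, a splicing factor of epithelial cells and the highest regulator per kilobase in Ctrl, averaged 399 with SAHA and 514 in Ctrl, a log2 fold change of -0.37 (SE 0.28, adjusted p = 0.557) in the authors' deposited table. ELF3, an epithelial transcription factor, averaged 55.3 with SAHA and 54.8 in Ctrl, and GRHL1, another, 23.1 with SAHA and 9.68 in Ctrl, neither past the threshold (adjusted p = 0.994 and 0.338) in the authors' deposited table. ELF3 shares exon bases with the antisense gene ELF3-AS1, which averaged 382 with SAHA and 506 in Ctrl. Without the strand setting, reads in the bases shared by ELF3 and ELF3-AS1 cannot be told apart. ESRP1 and OVOL2 averaged 7.31 and 4.71 with SAHA, against 1.46 and 0.735 in Ctrl, with adjusted p-values of 0.346 and 0.462 in the authors' deposited table; they were not analysed here with a6. OVOL1 had a mean normalized count of 2.00 in the compound 1 table and was not analysed here with SAHA or a6. The SE of the log2 fold change with SAHA was 0.28 for ESRP2, 0.70 for GRHL1 and 1.77 for OVOL2, so the test could separate less at the low levels of GRHL1 and OVOL2.

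The 4 keratins of simple epithelia, KRT7, KRT8, KRT18 and KRT19, stood at percentiles 99.4 to 99.6 of all genes per kilobase of transcript in Ctrl, and 0 of them passed with any compound in the authors' DESeq2 test. With SAHA 2 of the 4 had an unadjusted p under 0.05, both higher, beside 3418 of all 18534 genes in either direction. With compound 1 and a6 there were 0, and 0 of the 4 were in the authors' lists of changed genes for SAHA. KRT8 averaged 23136 with SAHA and 17305 in Ctrl, KRT7 16171 with SAHA and 10570.0 in Ctrl, KRT18 10919 with SAHA and 8497 in Ctrl, and KRT19 12825 with SAHA and 7077 in Ctrl, by the authors' deposited table. Their log2 fold changes with SAHA lay between 0.36 (KRT18) and 0.86 (KRT19, SE 0.35, adjusted p = 0.120) in the authors' deposited table. Their summed level was 63050.2 with SAHA and 43449 in Ctrl, 38619.5 with compound 1 and 43353 in Ctrl, and 43651 with a6 and 42464 in Ctrl. Each of the 4 was higher with SAHA in the mean, by less than the test could separate. KRT8 and KRT18 share exon bases on opposite strands, as do KRT7 and KRT7-AS, and the sources used here do not give the strand setting of the counting.

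Of the other keratins, KRT81 and KRT15 rose with SAHA. KRT81, a hair keratin at chromosome 12, 52285913 to 52291534, averaged 2734 with SAHA and 707 in Ctrl, a log2 fold change of 1.95 (SE 0.38, adjusted p = 2.35e-05) in the authors' deposited table. KRT15, a keratin of basal epithelial cells at chromosome 17, 41513743 to 41522529, averaged 296 with SAHA and 75.1 in Ctrl, a log2 fold change of 1.98 (SE 0.43, adjusted p = 0.000243) in the authors' deposited table. KRT81 has a near copy, KRT86, which averaged 149 with SAHA and 63.6 in Ctrl (log2 fold change 1.23, adjusted p = 0.0568) in the authors' deposited table, so how reads divide between the 2 is uncertain. KRT80 averaged 5015 with SAHA and 3366 in Ctrl, a log2 fold change of 0.58 (adjusted p = 0.293) in the authors' deposited table. With compound 1 and a6 the log2 fold changes of KRT15, KRT80 and KRT81 lay between -0.47 and 0.26 in the authors' deposited tables. KRT17 had a mean normalized count of 2.84 in the compound 1 table and was not analysed here with SAHA or a6.

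Desmosome genes contained the 1 gene of the set that fell past the threshold with SAHA. PKP3, plakophilin 3 at chromosome 11, 392614 to 404908, averaged 139 with SAHA and 325 in Ctrl, a log2 fold change of -1.23 (SE 0.29, adjusted p = 0.00121) in the authors' deposited table. With a6 it averaged 180.1, against 318 in Ctrl, a log2 fold change of -0.82 (SE 0.28, unadjusted p = 0.00323, adjusted p = 0.209) in the authors' deposited table, and with compound 1 it was at 0.03 (SE 0.24). JUP averaged 1693 with SAHA and 1703 in Ctrl, DSP 971 with SAHA and 1170.3 in Ctrl, DSG2 941 with SAHA and 814 in Ctrl, and PKP2 537 with SAHA and 347 in Ctrl, by the authors' deposited table, and they did not pass. DSC2 averaged 22.8 with SAHA and 18.9 in Ctrl. The summed level of the 6 desmosome genes was 4304 with SAHA and 4377 in Ctrl, 4261 with compound 1 and 4371 in Ctrl, and 3553 with a6 and 4281 in Ctrl. Desmosome transcripts other than PKP3 therefore differed from Ctrl by less than the test could separate, with each compound.

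In the last class, surface proteases, their inhibitors, trafficking and lipid genes, SPINT1 and CDS1 rose with SAHA. SPINT1, an inhibitor (HAI-1) of the membrane protease matriptase at chromosome 15, 40844018 to 40858207, averaged 944 with SAHA and 303 in Ctrl, a log2 fold change of 1.64 (SE 0.40, adjusted p = 0.00145) in the authors' deposited table. CDS1, an enzyme of phosphatidylinositol synthesis at chromosome 4, 84582979 to 84651338, averaged 154 with SAHA and 29.4 in Ctrl, a log2 fold change of 2.39 (SE 0.42, adjusted p = 2.23e-06) in the authors' deposited table. ST14, matriptase itself, was just outside the threshold with SAHA at 117 against 59.0 in Ctrl, a log2 fold change of 0.98 (SE 0.34, adjusted p = 0.0550) in the authors' deposited table. SPINT2, another matriptase inhibitor with a higher level per kilobase in Ctrl, averaged 3260 with SAHA and 3846 in Ctrl, a log2 fold change of -0.24 (adjusted p = 0.804) in the authors' deposited table. The antisense gene SPINT1-AS1 shares exon bases with SPINT1 and was at 1.37 (adjusted p = 0.107) with SAHA in the authors' deposited table. Reads in the bases shared by SPINT1 and SPINT1-AS1 cannot be told apart without the strand setting. RAB25, a small GTPase of epithelial trafficking, had a mean normalized count of 0.163 in the compound 1 table and was not analysed here with SAHA or a6.

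With compound 1 the values nearest to a call were CDS1 and CGN. CDS1 averaged 55.7 with compound 1 and 29.4 in Ctrl, a log2 fold change of 0.92 (SE 0.38, unadjusted p = 0.0152, adjusted p = 1.00) in the authors' deposited table. CGN was at 0.69 (95% interval -0.01 to 1.40) on the log2 scale in the authors' deposited table. Of the other 8 genes that rose with SAHA, CLDN1 was at 0.83 (-0.36 to 2.02), C1orf116 at 0.21 (-1.17 to 1.59), PCDH1 at 0.20 (-0.25 to 0.65) and TJP3 at 0.06 (-1.20 to 1.32) with compound 1 in the authors' deposited table. TSPAN13 was at -0.03 (-1.28 to 1.22), SPINT1 at -0.10 (-1.18 to 0.99), KRT81 at -0.16 (-0.94 to 0.62) and KRT15 at -0.47 (-1.49 to 0.56) in the same authors' deposited table. The intervals of C1orf116, TJP3 and TSPAN13 allow changes of more than 2-fold in either direction. The simple keratins had narrower intervals, from -0.27 to 0.38 for KRT7 and -0.70 to 0.15 for KRT8 in the authors' deposited table.

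With a6, CGN was the call and TSPAN13, PCDH1 and PKP3 had the next smallest p-values. TSPAN13 averaged 55.6 with a6 and 18.8 in Ctrl, a log2 fold change of 1.56 (SE 0.52, unadjusted p = 0.00250, adjusted p = 0.186) in the authors' deposited table. PCDH1 averaged 388 with a6 and 229 in Ctrl, a log2 fold change of 0.76 (SE 0.27, unadjusted p = 0.00484, adjusted p = 0.248) in the authors' deposited table. Of the other genes that rose with SAHA, a6 gave SPINT1 at -0.54, TJP3 at -0.56, KRT81 at -0.23, KRT15 at -0.14 and CLDN1 at 0.30 on the log2 scale in the authors' deposited table, with 0 of these 5 past the threshold in the authors' DESeq2 test, with 0 at an unadjusted p under 0.05, and with 0 in the authors' own a6 lists. CDS1 averaged 50.5 with a6 and 28.7 in Ctrl, a log2 fold change of 0.81 (adjusted p = 0.722) in the authors' deposited table.

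Whether the compounds differed from each other was tested gene by gene in the 3 pairs, at the same dose and time, as the difference of the 2 log2 fold changes against Ctrl. The SE was the root of the summed squared SEs, and p-values of the z test were adjusted over all genes in both tables. This SE leaves out the error that the 2 fold changes share through the Ctrl libraries, which makes the test conservative. For a6 minus SAHA, 0 of the 35 genes were higher and 3 lower, where 0.0590% of all genes were higher and 0.197% lower. These 3 were C1orf116, KRT81 and PCDH1. C1orf116 averaged 27.0 with a6 and 374 with SAHA, a difference of -3.75 on the log2 scale (SE 0.68, z test, adjusted p = 0.000128). KRT81 averaged 588 with a6 and 2734 with SAHA, a difference of -2.18 (SE 0.49, z test, adjusted p = 0.00793). PCDH1 averaged 388 with a6 and 1215 with SAHA, a difference of -1.61 (SE 0.39, z test, adjusted p = 0.0214). CGN did not differ past the threshold: the a6 minus SAHA difference was -1.12 with a 95% interval of -2.12 to -0.11 (z test, adjusted p = 0.766). An error correlation of 0.5 between the 2 fold changes, as 3 shared control libraries would give at equal spread, put 11 genes lower with a6 than with SAHA, where 1.98% of all genes were. The 8 added were CDH3, CDS1, CLDN1, KRT15, SPINT1, ST14, TJP3 and TSPAN13.

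For SAHA minus compound 1, 6 of the 38 genes were higher and 0 lower, where 0.583% of all genes were higher and 0.481% lower; of 12 at an unadjusted p under 0.05, 11 were higher, beside 1345 of all 18514 genes in either direction. On the log2 scale the difference was 4.04 for C1orf116 (SE 0.80, z test, adjusted p = 0.000264), 3.85 for TSPAN13 (SE 0.76, adjusted p = 0.000286) and 2.75 for CGN (SE 0.51, adjusted p = 5.43e-05). It was 2.18 for PCDH1 (SE 0.36, z test, adjusted p = 3.23e-06), 2.44 for KRT15 (SE 0.68, adjusted p = 0.0329) and 2.11 for KRT81 (SE 0.55, adjusted p = 0.0181). At an error correlation of 0.5 there were 10 higher and 1 lower, with CDS1, KRT19, SPINT1 and TJP3 added above and PKP3 below, where 2.64% of all genes were higher and 2.70% lower. For a6 minus compound 1, 0 of the 35 genes passed in the z test, 2 had an unadjusted p under 0.05, beside 222 of all 15251 genes, and 1 passed at an error correlation of 0.5; of all genes 0.00656% were higher and 0.0262% lower. The gene that passed at that correlation was CGN, at a difference of 1.63 (95% interval 0.62 to 2.65 without the correlation), where 0.125% of all genes were higher. PKP3 was the other at an unadjusted p under 0.05, at -0.85 (95% interval -1.57 to -0.14). An interval that includes 0 does not show that 2 compounds act alike: for KRT8 the a6 minus compound 1 difference was 0.26, with an interval of -0.35 to 0.87.

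**Figure D3:**
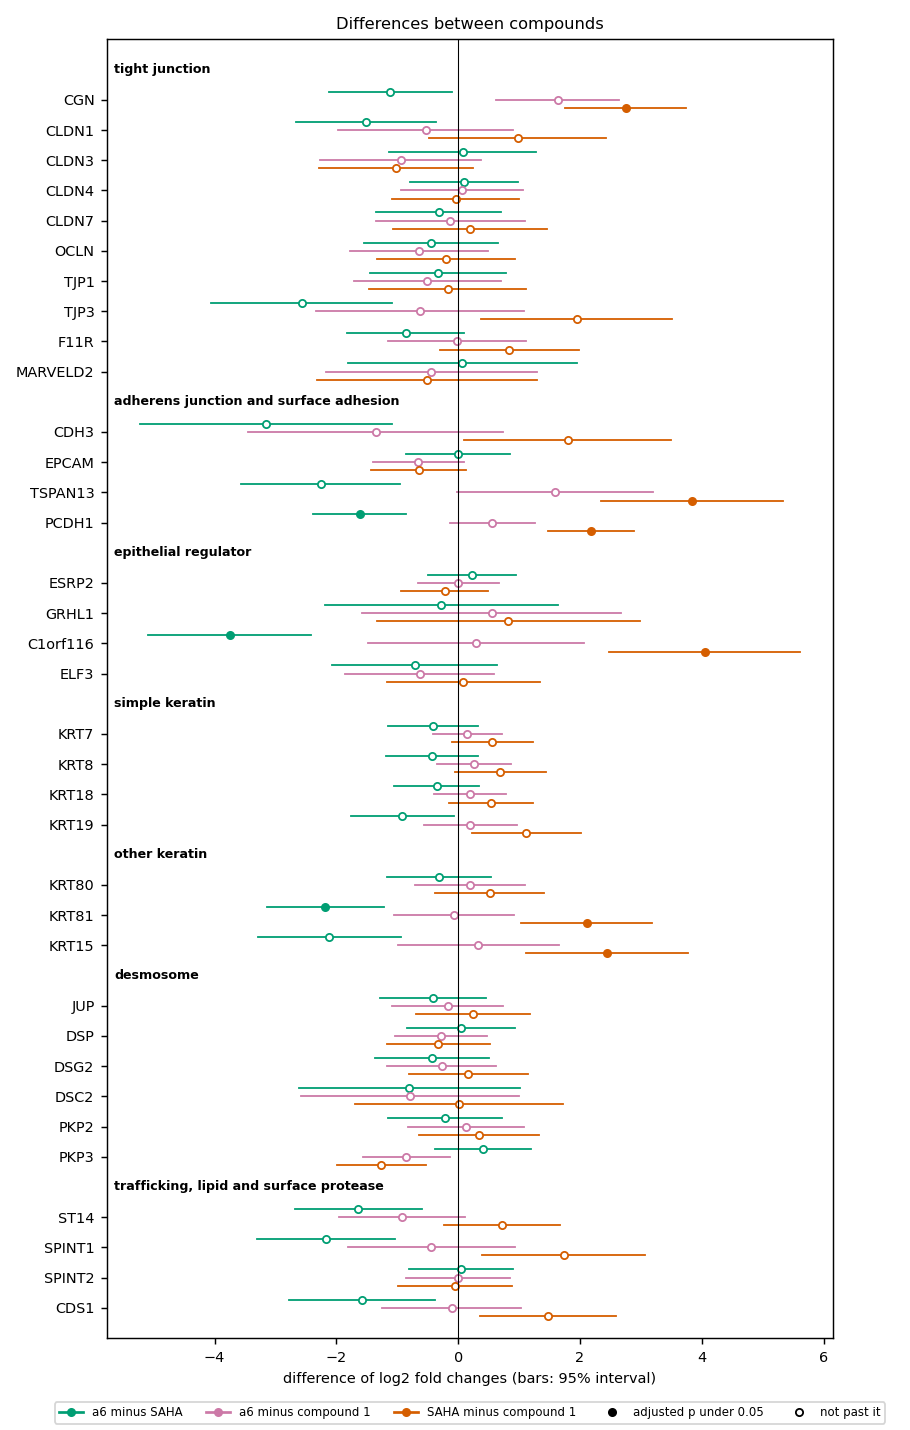
Difference of log2 fold changes (x axis) between compounds for the 35 genes measured with all 3, with 95% intervals from summed squared standard errors; filled points passed an adjusted p of 0.05. C1orf116, KRT81 and PCDH1 lay lower with a6 than with SAHA, and 6 genes lay higher with SAHA than with compound 1.

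In Ctrl the 42 measured genes spanned a wide range of levels, compared here as mean normalized counts per kilobase of transcript. KRT8 (7085), KRT7 (6018), KRT19 (5076) and KRT18 (4998) stood at ranks 1 to 4, followed by SPINT2 (2127), CLDN4 (1160.0) and KRT80 (865) per kilobase. KRT81 was at 365 per kilobase, and the other 9 genes that rose with SAHA lay between 98.9 (SPINT1) and 3.54 (C1orf116). CDH1, at 1.03 per kilobase, and OVOL2, MARVELD3, ESRP1, OVOL1 and RAB25, between 0.483 and 0.108, held the lowest 6 places. The Ctrl level is the denominator of each fold change, so this order is a description and was not tested against the changes. E-cadherin transcript was thus near the bottom of the 42 and simple keratin transcripts at the top.

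**Figure D4:**
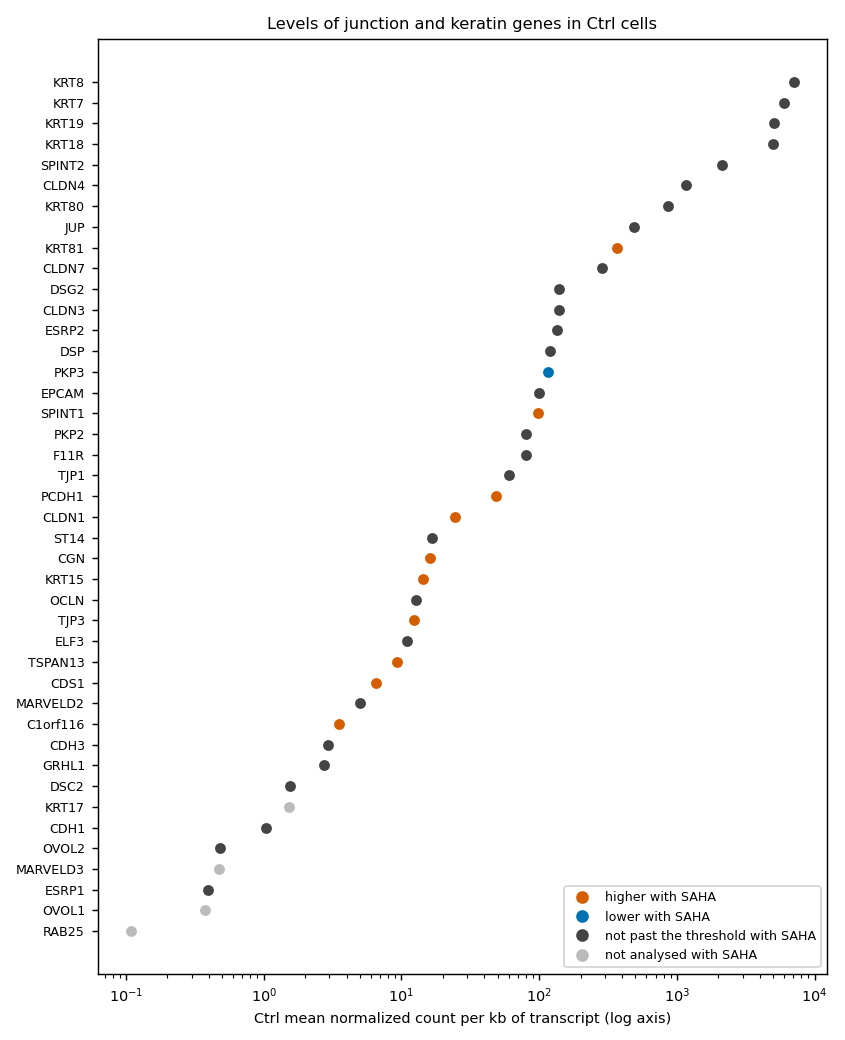
Ctrl mean normalized count per kilobase of transcript (x axis, log scale) of the 42 measured genes, coloured by their call with SAHA. The simple keratins KRT8, KRT7, KRT19 and KRT18 stand at 4998 to 7085 per kilobase, and genes that rose with SAHA lie from 365 (KRT81) down to 3.54 (C1orf116).

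Related genes outside the set are set beside these counts with SAHA, where 4.53% of all genes rose and 3.02% fell. Their lists were also chosen with earlier results of these data known. Of 30 other tight junction genes measured, 2 rose and 1 fell in the authors' deposited table: CGNL1, the paralogue of cingulin (38.4 with SAHA and 9.26 in Ctrl, log2 fold change 2.05, adjusted p = 0.0201), ILDR2 (1.24, adjusted p = 0.0451) and the polarity gene PARD6A (-1.37, adjusted p = 0.00766). Of 14 other adherens junction genes, catenins and nectins among them, 0 rose and 0 fell with SAHA in the authors' DESeq2 test. At an unadjusted p under 0.05 there were 2 of the 14, beside 3418 of all 18534 genes, and the median log2 fold change of the 14 was 0.17. Among hemidesmosome genes, which anchor cells to the basement membrane, COL17A1 rose with SAHA (431 with SAHA and 164 in Ctrl, log2 fold change 1.39, adjusted p = 7.99e-05) in the authors' deposited table. COL17A1 also rose with a6, at 387 against 160.4 in Ctrl (log2 fold change 1.27, adjusted p = 0.000296) in the authors' deposited table. It was the 1 gene called with a6 in these junction, keratin and epithelial lists outside the set.

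Of 5 other desmosome genes measured, PPL, which encodes periplakin, rose (1.02, adjusted p = 0.0209) and EVPL, its partner envoplakin, fell (-1.01, adjusted p = 0.00499) with SAHA in the authors' deposited table. Of 3 other keratins measured, KRT34 rose (2.07, adjusted p = 0.00135) with SAHA in the authors' deposited table. Of 36 other epithelial genes measured, 9 rose and 3 fell with SAHA, where 4.53% of all genes rose and 3.02% fell. CD24, a surface glycoprotein, averaged 159 with SAHA and 13.9 in Ctrl (log2 fold change 3.52, adjusted p = 5.74e-14) in the authors' deposited table. MAL2, a protein of apical transport, also rose with SAHA (2.88, adjusted p = 1.37e-07) in the authors' deposited table. The 3 that fell with SAHA, named after their values were seen, were AP1M2 (-1.56, adjusted p = 7.16e-05), MARVELD1 (-1.54, adjusted p = 1.23e-05) and TFAP2A (-1.35, adjusted p = 0.00343) in the authors' deposited table.

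**Figure D5:**
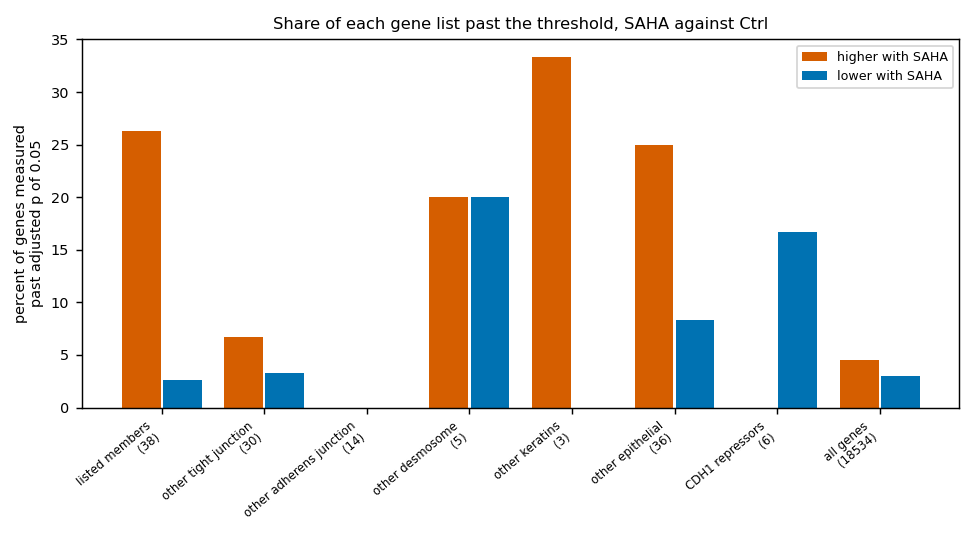
Percent of measured genes that rose or fell with SAHA at an adjusted p under 0.05 in the lists drawn, beside all 18534 genes. Numbers measured are in parentheses. Not drawn are hemidesmosome genes (2 of 9 higher, 0 lower), gap junction genes (2 of 6 higher, 0 lower) and the cell type markers. The set described here had 10 of 38 higher and 1 lower, other epithelial genes 9 of 36 higher and 3 lower, and other adherens junction genes 0 of 14. Of all genes 4.53% were higher and 3.02% lower. The set and the lists were chosen with earlier results of these data known.

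Of 6 measured repressors of CDH1, 1 fell and 0 rose with SAHA, where 3.02% of all genes fell and 4.53% rose. TCF3, which encodes E12 and E47, fell with SAHA to 1623, against 2939 in Ctrl (log2 fold change -0.86, SE 0.27, adjusted p = 0.0240) in the authors' deposited table. SNAI1 was at -0.06, SNAI2 at 0.82 (adjusted p = 0.0760), SNAI3 at 0.40, ZEB1 at -0.38 (adjusted p = 0.746) and ZEB2 at -0.86 (adjusted p = 0.507) with SAHA in the authors' deposited table. With a6, SNAI1 was at -1.32 (adjusted p = 0.566), ZEB1 at -0.48, ZEB2 at -0.48, SNAI2 at -0.31, SNAI3 at 0.10 and TCF3 at -0.08 in the authors' deposited table. With compound 1 the 6 lay between -0.56 and 0.19. TWIST1, TWIST2 and TCF4 were not analysed here.

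Some markers of other cell types were called with SAHA, among those that had a row. Of all genes, 4.53% rose and 3.02% fell with SAHA. Of 10 fibroblast markers 6 were measured with SAHA, with a summed level of 929 with SAHA and 711 in Ctrl, and LUM rose to 49.3, against 0.378 in Ctrl. The lowest mean count analysed with SAHA was 2.44, so LUM could be measured only because it was higher with SAHA. The summed levels leave out markers without a row, which can favour markers that were higher with SAHA. Of 8 immune markers 3 were measured, summed 161 with SAHA and 109.9 in Ctrl, with CD14 higher, and PTPRC, which marks all leukocytes, was not analysed here with SAHA. Of 7 endothelial markers 3 were measured, summed 154 with SAHA and 46.9 in Ctrl, with KDR and VWF higher. With compound 1, 6 of the 7 had a row. Any marker near 0 in Ctrl could be measured with SAHA only if it was higher with SAHA, as for LUM. With a6, 4 fibroblast markers were measured, summed 535 with a6 and 694 in Ctrl, with PI16 lower, where 0.341% of all genes fell. The calls are those of the authors' deposited tables, and the part of these markers in the changes of the junction and keratin genes was not tested.

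The genes outside the set whose 3 log2 fold changes lay nearest to those of CGN, by Euclidean distance over genes whose mean count reached 50 in all tables, were LNCOG (distance 1.23), TNFSF15 (1.24), TMEM45A (1.42), TRNP1 (1.52) and NPPB (1.56). LNCOG was at 2.59 with SAHA, 0.12 with compound 1 and 1.65 with a6, and TNFSF15 at 3.23, 0.61 and 1.11, in the authors' deposited tables. TRNP1 was at 2.29, -0.09 and 1.73 in the authors' deposited tables, and it passed with both SAHA and a6 as LNCOG did. TNFSF15, TMEM45A and NPPB passed with SAHA and not with a6 (adjusted p = 0.205, 0.516 and 0.110 with a6) in the authors' DESeq2 test. All were picked for nearness to CGN, so their calls are a description only.

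The authors also deposited lists of genes with G-quadruplexes, named for the genes raised or lowered by each compound, with a number per gene. Of the 723 entries in that for genes raised by SAHA, 188 were not in their list of raised genes, and of the 326 for genes lowered by a6, 208 were not in their list of lowered genes. Of the 11 genes of the set in their list of genes raised by SAHA, 7 were also in the G-quadruplex list: PCDH1 with 4, KRT15 and KRT81 with 2 each, and TSPAN13, TJP3, SPINT1 and CDS1 with 1 each. PKP3, in their list of lowered genes, had 2. Of all genes in the authors' deposited tables of changed genes, 40.3% of those raised and 47.9% of those lowered by SAHA were in the G-quadruplex lists. For a6, TSPAN13 was listed with 1, and 38.7% of all genes listed as raised were in that list. CGN, raised by both SAHA and a6, was named in neither list, and C1orf116 was not named in that of SAHA. The sources used here do not give the genomic region in which these G-quadruplexes were counted.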

How the data were processed

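RNA of MDA-MB-231 cells was sequenced in 12 libraries, 3 in each of 4 groups named by the labels. Per the submitters' processing notes, reads were trimmed with cutadapt and compared with DESeq2 on GRCh38 (hg38); the sources used here do not give the aligner, the read counter, the strand setting or any version. The tables the authors deposited give, per gene and compound, a mean normalized count (a signal value over the libraries compared), the log2 fold change and its standard error, the statistic of the Wald test (a score) and p-values, unadjusted and adjusted by Benjamini and Hochberg over the table; recomputing the statistic and the adjustment gave the deposited values.

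From these, group levels were computed assuming equal groups, differences between compounds were tested by a two-sided z test with Benjamini-Hochberg adjustment, and that test was tested on simulated data. Intervals are 95%. Positions and lengths came from GENCODE 29. Tools were Python 3.11.15, numpy 2.4.6, pandas 2.3.3, scipy 1.17.1, statsmodels 0.14.6 and matplotlib 3.10.9. The 43 members, their 7 roles and the 12 other lists were chosen with earlier results of these data known. Full values are given for members past the threshold in any of the comparisons and for up to 4 per role with the highest mean counts; from the other lists, up to 4 called genes per list with the smallest adjusted p; and the 5 genes nearest to CGN. Some genes that this rule takes are left out of the text. Alternatives were an adjusted p under 0.01, a 2-fold limit, adjustment over all genes with a p-value, a filter at a mean count of 50, subtraction of the median fold change, removal of a lowess trend (share 0.3) on GC content, the authors' lists of changed genes and, for differences, an error correlation of 0.5. The depth of each library is unknown, so no interval for counting error is given.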

Additional observations from a re-analysis of the deposited data

How the results depend on the processing

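No paired analysis was possible because the tables hold no values per library, and for the same reason leaving out each replicate was not run. The count of 11 genes past the threshold with SAHA, 0 with compound 1 and 1 with a6 stayed within 1.5 times under each alternative run, except that the authors' own lists name 3 for a6 (CGN, TSPAN13 and CLDN3). At an error correlation of 0.5 the difference of a6 from SAHA passed for 11 genes instead of 3, that of a6 from compound 1 for 1 instead of 0 (CGN, adjusted p = 0.00620), and that of SAHA from compound 1 for 11 instead of 6. No value past the threshold turned its direction under these alternatives. With the trend on GC content removed, KRT19 (1.08, adjusted p = 0.0329) and ST14 (1.22, adjusted p = 0.00952) passed with SAHA and SPINT1 (-2.32, adjusted p = 0.0272) for a6 minus SAHA; the share of higher calls over all genes with SAHA was then 69.9%, against 60.0% as deposited. At an adjusted p under 0.01, PCDH1 was lost for a6 minus SAHA, and KRT15 and KRT81 for SAHA minus compound 1. A minimum mean count of 50 in both tables left 2 of 3 calls for a6 minus SAHA and 4 of 6 for SAHA minus compound 1, because C1orf116 in the first and C1orf116 and TSPAN13 in the second fell under it and were not tested. Genes near 0 in Ctrl could enter the SAHA and a6 tables only if higher with the compound, which limits what can be said of CDH1, ESRP1, OVOL1, OVOL2, MARVELD3, KRT17 and RAB25.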
